A study of Mus musculus with 4 samples.

Results

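The genes described here are 44 genes of DNA replication and S phase, listed by name. Each was represented by its brightest probe set, a group of probes designed for a transcript. In 9 genes that probe set is marked x or s, a kind whose probes can also match other transcripts. Of the 44 genes, 43 had a probe set that names that gene alone, among 18193 genes with such a probe set in all, and Chaf1a was not analysed here. Affymetrix arrays measured the RNA of mouse ILC2 (group 2 innate lymphoid cells), which sit in tissues, lack the antigen receptors of T and B cells and secrete type 2 cytokines. There were 2 samples from Ets1-deleted mice and 2 from littermates labelled control, with 1 array each. All samples were from C57BL/6 mice, and all cells were grown for 2 weeks with IL-7 and IL-33 on the stromal line OP9-DL1, which carries a ligand of Notch receptors, and sorted for the surface protein ICOS. The sources used here do not give how Ets1 was deleted, in which cells, or whether the 2 samples of a group came from separate animals or cultures. The p-values therefore rest on the spread between samples, largely pooled over all tested genes, and that spread may be technical.

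Before a cell copies its DNA, the origin recognition complex, CDC6 and CDT1 load the ring-shaped MCM helicase onto origins, which is called licensing. The kinase CDC7 and the cyclin E kinase then turn MCM into an active helicase by adding CDC45 and the GINS complex, and the polymerases follow with the PCNA clamp, the RFC loader and the single-strand binding protein RPA. Most of these genes are transcribed in late G1 and S phase under the E2F transcription factors, which the RB family of proteins restrains. ETS1, the product of the deleted gene, is a transcription factor of the ETS family that binds DNA around a GGAA core.

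E2F sites in promoters are shown here because E2f1 is itself a member. The genes were listed by name and not by motif. Since most are known to be transcribed under E2F factors, a raised share of E2F motifs may follow from the choice of genes. The promoter windows are those of RefSeq on GRCm38.p6, 250 bases before to 50 after each start site, and 37 of the 44 genes matched, with 44 windows. Ccne2, Prim2, Pole, Mcm4, Gins1, Gins2 and Rfc2 had no window in this table. An E2F motif (TTTCCCGC, TTTCGCGC, TTTGCCGC or TTTGGCGC, both strands) was found in 14 of the 37 genes (37.8%), against 704 of all 27025 genes with a window (2.6%). By windows the shares were 31.8% of the members' windows and 2.26% of all 32851 windows. Of the 20 matches, 12 began before the start site and 8 at or after it. In Mcm5 and in Mcm6, matches on opposite strands shared bases and were counted separately. A match is a description of the letters and not a measured binding site. One match in each of 13 of the 14 genes, all but Rfc3, is given below with up to 10 bases on either side, written 5′ to 3′ on the strand that carries the motif, with the motif in capitals.
Mcm3, chr1:20820276-20820303: cttcccaagtTTTCCCGCcacggaagtt
Mcm5, chr8:75109346-75109373: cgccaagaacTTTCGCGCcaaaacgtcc
Mcm6, chr1:128359798-128359825: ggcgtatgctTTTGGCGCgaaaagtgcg
Mcm7, chr5:138172031-138172058: ggacaccctgTTTCCCGCggttcgaaat
Orc1, chr4:108579417-108579444: ggagaaaactTTTCGCGCcactaaccga
Cdc6, chr11:98908003-98908030: ccccaggcgaTTTCCCGCtctccaccgg
Cdt1, chr8:122568037-122568064: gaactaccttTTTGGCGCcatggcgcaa
Gins3, chr8:95633508-95633535: tcaaactcgcTTTCCCGCgccgcactcg
Pola1, chrX:93632276-93632303: cgggagtgcaTTTGGCGCcctgtgatga
Pold1, chr7:44548766-44548786: gctTTTCCCGCcacaagatac
Pole2, chr12:69228163-69228190: atgttcgcgaTTTGGCGCcaccgccgac
Lig1, chr7:13278842-13278869: gccacacagaTTTCGCGCgcactttggc
Uhrf1, chr17:56304118-56304145: ccgagtcgggTTTCGCGCgcccaggcgt

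The ETS motif CCGGAAGT, searched on both strands, was present in 6 of the 37 genes (16.2%) and in 4.31% of all 27025 genes with a window. The 6 were Tyms, Rfc3, Gins3, Mcm10, Rfc4 and Rpa2, and Rfc3 and Gins3 held both kinds of motif. No ETS match overlapped an E2F match. The upstream sequences of Tyms and Rfc3 are printed in full, since Tyms was the member with the largest rise and Rfc3 held 2 ETS matches. In Tyms the match began 26 bases before the start site, and in Rfc3 the matches began 47 and 30 bases before it, upstream of an E2F match. Both sequences are the 250 bases before the start site on the gene's own strand, the minus strand of the chromosome, with ETS and E2F matches in capitals.
Tyms, chr5:30073626-30073875: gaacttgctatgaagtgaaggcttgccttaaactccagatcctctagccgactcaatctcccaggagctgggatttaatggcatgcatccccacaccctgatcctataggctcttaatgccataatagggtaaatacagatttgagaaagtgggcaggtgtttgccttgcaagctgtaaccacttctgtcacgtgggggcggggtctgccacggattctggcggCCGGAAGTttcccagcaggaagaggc
Rfc3, chr5:151651209-151651458: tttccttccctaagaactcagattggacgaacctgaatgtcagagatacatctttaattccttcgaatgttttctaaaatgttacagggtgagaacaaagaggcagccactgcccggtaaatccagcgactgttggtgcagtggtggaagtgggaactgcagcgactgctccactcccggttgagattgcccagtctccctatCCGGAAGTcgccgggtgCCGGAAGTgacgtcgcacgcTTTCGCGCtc

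Ets1 itself was measured first as a check of the labels. Its brightest probe set read 138 and 180.2 intensity units in the Ets1-deleted arrays, against 1272 and 1231 in the controls, which gave a log2 difference of -2.99 ± 0.13 (SE; adjusted p = 2.12e-08 in limma). The array medians lay between 96.5 and 97.7 intensity units. Of 10 tested ILC2 markers, 6 rose and 2 fell, and their summed level was 29220 and 26784 intensity units in the Ets1-deleted arrays, against 23631 and 21413 in the controls. The 2 that fell were Klrg1 (log2 difference -1.60) and Icos (-0.38), the gene of the protein used for sorting. Gata3 (0.08) and Il7r (0.05) did not pass. Areg and Il1rl1 were not analysed here. Markers of other cells differed as well. Of 11 tested mast cell and basophil markers 9 rose, with a summed level of 5151 and 4812 over the 14 measured, against 2753 and 2764 in the controls. All 12 tested myeloid markers rose (16 measured, 7238 and 6842 against 3456 and 3781 in the controls), and of 8 tested T cell markers 5 rose and 1 fell (12 measured, 7272 and 7704 against 4203 and 4280 in the controls). Cpa3, a mast cell protease, rose by 4.07 on the log2 scale, and Cd3e, a subunit of the T cell receptor complex, by 3.28. The T cell marker that fell was Zap70, by 1.13. Cd4, Cd8a, Cd8b1 and Cd5 were too dim to test, as were the mast cell markers Fcer1a, Ms4a2 and Mcpt4. Of the tested mast cell and basophil markers, Mcpt8 (-0.25) and Tpsb2 (0.06) did not pass. Of 3 tested B cell markers 1 fell, and of 9 tested markers of stroma and fibroblasts 1 rose and 3 fell. These marker counts hold genes bright enough to test, so a marker that is dim in the controls entered when its Ets1-deleted values were high. This kind of array summary has no zero, so no marker is at 0. The part of these cell types in the results below was not tested, and in bulk RNA fewer cells of a type and less RNA per cell cannot be told apart.

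The replication genes showed small differences between the genotypes, in both directions. Of the 43 measured members 1 rose, Tyms, and 1 fell, Pole, in limma at an adjusted p of 0.05. That is 4.65% of the members, against 26.7% of all 10872 tested genes, with 13.9% higher and 12.8% lower. All 43 members passed the filter on dim genes, whose limit was a mean of 97.4 intensity units. The members' median log2 difference was 0.02, beside -0.004 over all tested genes, with 22 members above 0 and 21 below. The middle of the members, between the lower and the upper quartile, ran from -0.10 to 0.11, against -0.19 to 0.18 for all tested genes. The median size of a member's difference, whatever its sign, was 0.11, and that of all tested genes 0.19. For 41 of the 43 members the 95% interval of the difference, taken gene by gene, lay inside 1.5-fold in either direction. The intervals of Pole and Tyms reached further. These intervals use variances largely pooled over all tested genes, while replicate arrays differed more over the members. The members' median gap between arrays of a group was 0.17 (Ets1-deleted) and 0.14 (control), beside 0.12 and 0.11 over all tested genes. Intervals from each gene's own variance are not given here, so the 41 are not shown to be unchanged. An unadjusted p under 0.05 was found for 1 member above 0, Tyms, and 4 below, Pole, Rfc3, E2f1 and Mcm4 (11.6% of members, against 37.7% of all tested genes).

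**Figure D1:**
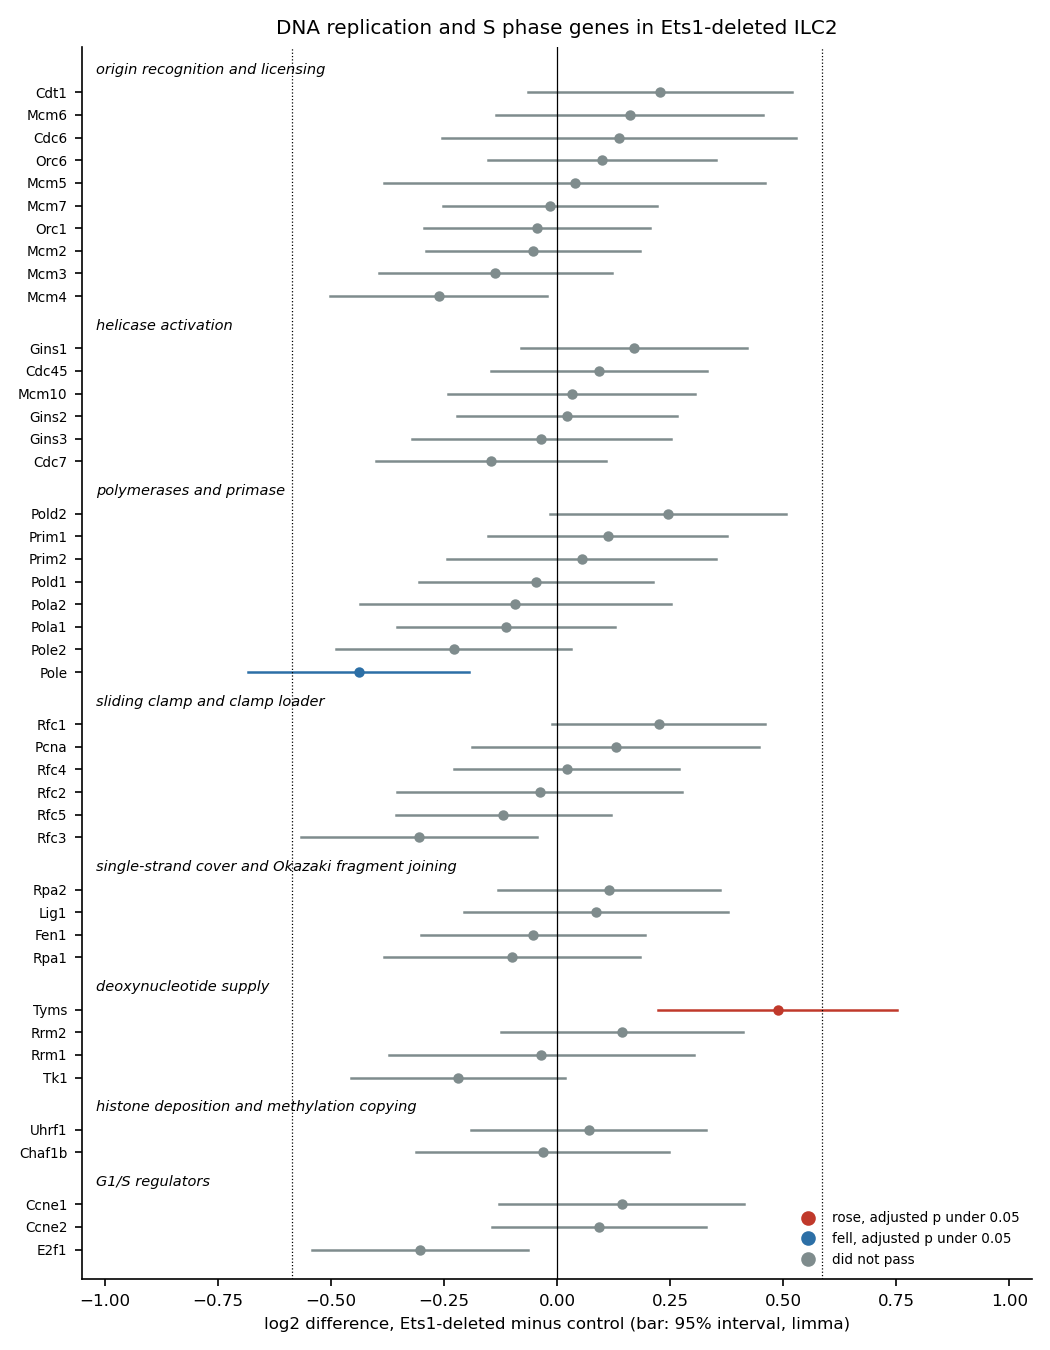
Log2 differences (Ets1-deleted minus control, horizontal axis) of the 43 measured members, grouped by role in replication, with n = 2 arrays per group. Points are limma estimates, bars their 95% intervals with variances largely pooled over all tested genes, and dotted lines mark 1.5-fold. Tyms stands apart on the right and Pole on the left, and the bars of the other 41 genes lie within the dotted lines.

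Among the 10 genes of origin recognition and licensing 0 rose and 0 fell in limma, with a median of 0.01 and differences between -0.26 (Mcm4) and 0.23 (Cdt1). The MCM ring is built of MCM2 to MCM7, one copy of each. Mcm2 read 930.1 and 959.7 intensity units in the Ets1-deleted arrays, against 967 and 994 in the controls. Mcm7 read 2206 and 2233 in the Ets1-deleted arrays, against 2283 and 2206 in the controls. The arrays lay close together for both genes, without overlap of the groups for Mcm2 and with overlap for Mcm7. Mcm4 read 937 and 882 in the Ets1-deleted arrays, against 1068 and 1113 in the controls, a log2 difference of -0.26 ± 0.11 (adjusted p = 0.102 in limma). The groups did not overlap for Mcm4 on this probe set. Its other bright probe set gave 0.07 and the groups overlapped there. Cdt1, the loading factor that is destroyed once S phase begins, read 1294 and 994 intensity units in the Ets1-deleted arrays, against 959 and 979 in the controls (log2 difference 0.23 ± 0.13, adjusted p = 0.243 in limma). The first Ets1-deleted array was well above the rest, and the second was slightly above both controls. The second bright Cdt1 probe set gave -0.06.

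On the brightest probe set, replicates of 1 group differed more than the groups did for several licensing genes. Mcm5 read 1129.6 and 677 in the Ets1-deleted arrays, against 923 and 785 in the controls. Its other bright probe set lay close together, at 608 and 632 in the Ets1-deleted arrays and 598 and 625 in the controls. Cdc6, which helps load MCM, read 542 and 355 in the Ets1-deleted arrays, against 448 and 356 in the controls. In both genes the Ets1-deleted arrays were the highest and the lowest of the 4 on the brightest probe set. Without Ets1-deleted replicate 2, Cdc6, Cdt1 and Mcm5 passed as higher in limma, by 0.44, 0.42 and 0.41 (adjusted p = 0.0445, 0.032 and 0.0486), with the lone array assumed to vary like the controls. Over all 43 members, the larger of the gaps between the 2 arrays of a group exceeded the difference between the groups in 33. This sets the larger of 2 gaps between single arrays against a difference of means, so a high count is common where groups do not differ. The share over all tested genes was not counted, so the 33 is no trait of the members. The groups did not overlap in 18 members (41.9%), 8 higher and 10 lower, against 62.6% of all tested genes (30.8% higher and 31.7% lower).

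**Figure D2:**
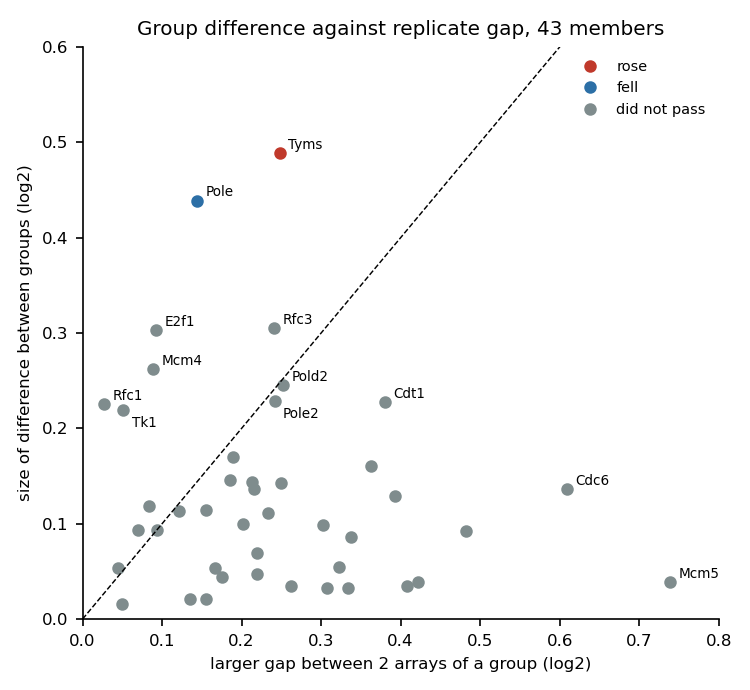
Size of the group difference (vertical axis, log2) against the larger gap between the 2 arrays of a group (horizontal axis, log2) for 43 members, 1 point each. The dashed line marks equal values, and 33 members lie below it, with Mcm5 and Cdc6 far to the right and Pole and Tyms well above the line. Points below the line are common where groups do not differ.

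None of the 6 genes of helicase activation passed in limma, where differences ran from -0.15 for Cdc7 to 0.17 for Gins1. Cdc45, which completes the active helicase, read 265 and 283 in the Ets1-deleted arrays, against 259 and 255 in the controls. Gins2, a GINS subunit, read 785 and 798 in the Ets1-deleted arrays, against 817 and 744 in the controls. The 2 control values lay on either side of both Ets1-deleted values for Gins2, and Cdc45 was slightly higher in both Ets1-deleted arrays.

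Of the 8 genes of the polymerases and the primase, Pole fell and 7 did not pass. Pole encodes the catalytic subunit of polymerase epsilon, which copies the leading strand. It read 322 and 317 intensity units in the Ets1-deleted arrays, against 455 and 412 in the controls, a log2 difference of -0.44 ± 0.11 (adjusted p = 0.0119 in limma), or 1.36-fold lower. Both Ets1-deleted arrays were below both controls, and a single probe set measured the gene. The Pole call was lost without control replicate 1 (-0.37, adjusted p = 0.116 in limma) and with each gene's own variance (adjusted p = 0.161). Pole2, the next subunit of the same enzyme, read 321 and 317 in the Ets1-deleted arrays, against 406 and 344 in the controls (-0.23 ± 0.12, adjusted p = 0.185 in limma). Both Ets1-deleted arrays were below both controls here too, and with the mean over its probe sets Pole2 passed as lower (-0.29, adjusted p = 0.0245 in limma). The only other Pole2 probe set (-0.36) had a mean level of 86.1, below the limit for testing. Pold2, an accessory subunit of polymerase delta, which extends the lagging strand, read 466 and 391 in the Ets1-deleted arrays, against 365 and 356 in the controls (0.25 ± 0.12, adjusted p = 0.158 in limma), without overlap. Pold1, the catalytic subunit of polymerase delta, differed by -0.05, and the polymerase alpha and primase genes Pola1, Pola2, Prim1 and Prim2 lay between -0.11 and 0.11.

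**Figure D3:**
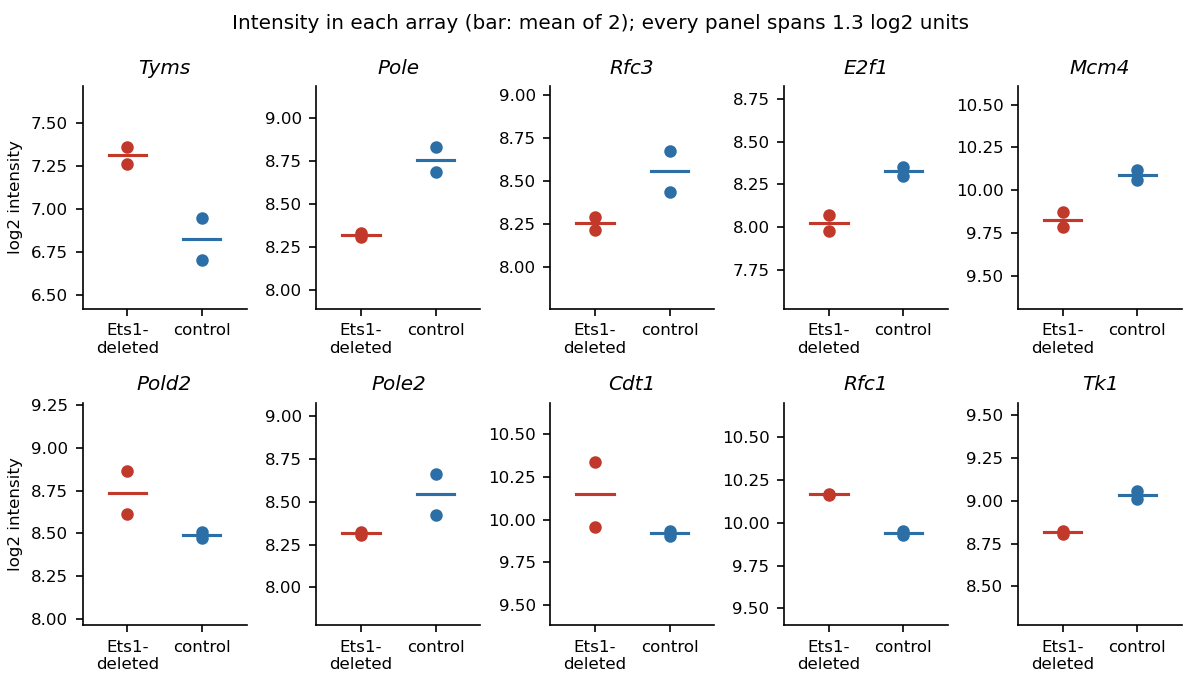
Log2 intensity in each array for the 2 members that passed and the 8 others with the largest differences, Ets1-deleted on the left and control on the right of each panel. Points are arrays and bars the mean of 2. In Tyms and Pole the groups stand apart, in opposite directions, and in Cdt1 one Ets1-deleted array lies close to the controls.

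In the clamp and clamp loader, 0 of 6 genes passed, and subunits of the same loader lay at opposite ends. RFC1 is the large subunit of the loader, and RFC2 to RFC5 are the small ones. Rfc3 read 313 and 297 in the Ets1-deleted arrays, against 347 and 409.7 in the controls, a log2 difference of -0.31 ± 0.12 (adjusted p = 0.0814 in limma). Its second bright probe set gave 0.06. Rfc1 read 1144 and 1153 in the Ets1-deleted arrays, against 992 and 974 in the controls (0.23 ± 0.11, adjusted p = 0.15 in limma), and its other bright probe sets gave 0.30 and 0.25. The Rfc1 groups did not overlap on the brightest probe set. Pcna, the sliding clamp and a common marker of S phase, read 3886 and 2959 in the Ets1-deleted arrays, against 3395 and 2829.9 in the controls, so the groups overlapped (0.13, 95% interval -0.19 to 0.45). The 4 genes that cover single strands and join Okazaki fragments (Rpa1, Rpa2, Fen1 and Lig1) lay between -0.10 and 0.11 on their brightest probe sets, and 0 of them passed in limma. The other bright Rpa1 probe set read 1038 and 1128 in the Ets1-deleted arrays, against 1328 and 1327 in the controls, without overlap. It gave -0.29 (adjusted p = 0.0783 in a limma fit with 1 row per probe set). The other bright Fen1 and Rpa2 probe sets gave 0.16 and 0.12.

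Deoxynucleotide supply held the member that rose. Tyms encodes thymidylate synthase, which makes dTMP from dUMP. It read 165 and 153 in the Ets1-deleted arrays, against 124 and 104 in the controls, a log2 difference of 0.49 ± 0.12 (adjusted p = 0.0102 in limma), or 1.40-fold. The groups did not overlap, and the mean level of 134 was not far above the limit of 97.4 for testing. With the array floor subtracted the Tyms difference was 0.86 (adjusted p = 0.0129), and with each gene's own variance the adjusted p was 0.237. The second bright Tyms probe set differed by 0.07, and its remaining probe sets, both dim, by 0.03 and -0.03. With the mean over its probe sets the Tyms difference was 0.14 (adjusted p = 0.207 in limma), and without control replicate 2 it was 0.36 (adjusted p = 0.121 in limma), so the call was lost in both cases. The mouse genome also holds a Tyms pseudogene, listed by RefSeq, and the sources used here do not give whether the probes read it. Tk1, the thymidine kinase of the salvage route to the same nucleotide, read 454 and 447 in the Ets1-deleted arrays, against 515 and 533 in the controls (-0.22 ± 0.11, adjusted p = 0.164 in limma), without overlap. Rrm1 and Rrm2, the subunits of ribonucleotide reductase, differed by -0.03 and 0.14, and neither passed.

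Uhrf1, which directs copying of DNA methylation to new strands, gave different answers by probe set. Its brightest probe set read 1849 and 1709 in the Ets1-deleted arrays, against 1569.8 and 1827 in the controls (0.07 ± 0.12, adjusted p = 0.721 in limma). Its second probe set read 671.1 and 704.9 in the Ets1-deleted arrays, against 514.3 and 454.2 in the controls (0.51 ± 0.12, adjusted p = 0.00676 in a limma fit with 1 row per probe set). The groups overlapped on the first and not on the second. With the mean over its probe sets Uhrf1 passed as higher (0.29, adjusted p = 0.0226 in limma), in the setting where Tyms did not. In the fit by probe set 24.2% of 22493 probe sets passed. Orc1, the origin recognition subunit whose level follows the cell cycle, differed by -0.04 on its brightest probe set and by -0.35 on a dimmer second one (adjusted p = 0.0404 in the fit by probe set). Of the 39 other bright probe sets of the members, these were the 2 that passed. Among the 30 members with several bright probe sets, 11 had probe sets that differed in sign (Cdt1, Fen1, Mcm3, Mcm4, Mcm6, Mcm7, Mcm10, Pold1, Rfc2, Rfc3 and Rrm2), and the median range between probe sets of a gene was 0.14. Chaf1b, a subunit of the histone chaperone that rebuilds chromatin behind the fork, differed by -0.03.

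**Figure D4:**
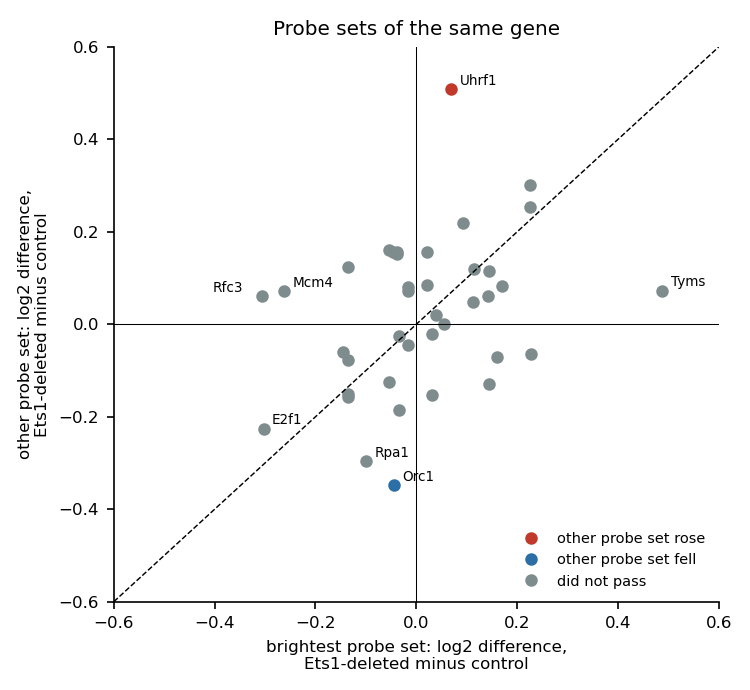
Log2 difference (Ets1-deleted minus control) of each other bright probe set (vertical axis) against the brightest probe set of the same gene (horizontal axis), 39 points. The dashed line marks equal values. Uhrf1 and Orc1 differ on the second probe set and hardly on the first, and Tyms the other way round.

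The G1/S regulators among the members did not pass. E2f1, the activator of many of the other genes, read 269 and 252 in the Ets1-deleted arrays, against 327 and 315 in the controls, a log2 difference of -0.30 ± 0.11 (adjusted p = 0.0613 in limma). Both Ets1-deleted arrays were below both controls, and its second bright probe set gave -0.23. E2f1 passed with the quantile normalization repeated (-0.32, adjusted p = 0.0483 in limma), and did not pass in 14 of the 17 alternative settings. With each gene's own variance its adjusted p was 0.168. The cyclin E genes Ccne1 and Ccne2 differed by 0.14 and 0.09. The 14 members with an E2F motif in the promoter window had a median difference of -0.03 (range -0.31 to 0.23), and the 22 measured members without one a median of 0.03 (range -0.30 to 0.49). The 6 members with the ETS motif had a median of 0.03 (range -0.31 to 0.49), with Rfc3 at the low end and Tyms at the high end, against -0.02 (range -0.30 to 0.25) for the 30 measured members without it.

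Other genes of the pathway were read from 5 lists. Each was read on its brightest probe set alone, and agreement with other probe sets of the same gene was not examined. Of the 100 tested genes 10 rose and 13 fell in limma (23%), beside 26.7% of all tested genes, and the median was -0.04. Without control replicate 2 the counts were 5 and 5. Among 21 E2F and RB family genes and other G1/S regulators, 3 rose and 3 fell. Rbl2, which encodes the RB family protein p130 of resting cells, read 699.8 and 595 in the Ets1-deleted arrays, against 1296 and 1214 in the controls, a log2 difference of -0.96 ± 0.12 (adjusted p = 8.16e-05 in limma). The Ets1-deleted arrays lay far below the controls. E2f6, a repressor, rose by 0.44 and E2f3, an activator, by 0.42, while E2f7, a repressor of late S phase, fell by 0.32 (adjusted p = 0.0173, 0.0305 and 0.0486 in limma). The CDK inhibitor gene Cdkn1c fell by 0.57 (adjusted p = 0.00612 in limma), and its Ets1-deleted values of 86.4 and 85.0 were below the arrays' medians, against 143.6 and 112.7 in the controls.

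Among 31 other replisome and licensing genes 3 rose and 4 fell (22.6%), with a median of -0.03. Wdhd1, which ties the helicase to polymerase alpha, read 432 and 414 in the Ets1-deleted arrays, against 291 and 313 in the controls (0.49 ± 0.11, adjusted p = 0.00603 in limma). Orc2, an origin recognition subunit, rose by 0.48, and Recql4, a helicase needed for origin firing, rose by 0.39 (adjusted p = 0.00658 and 0.0251 in limma). Topbp1, which acts in origin firing and in the ATR checkpoint, read 796 and 928 in the Ets1-deleted arrays, against 1214 and 1169 in the controls (-0.47 ± 0.12, adjusted p = 0.0106 in limma). Donson, which helps assemble the active helicase, fell by 0.43 (adjusted p = 0.0378 in limma). In these named genes the groups did not overlap. Of 13 other S phase chromatin genes 1 rose, the histone methyltransferase gene Ezh2 (0.38, adjusted p = 0.0222 in limma), and 0 fell.

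Of 18 other nucleotide supply genes 2 rose and 5 fell (38.9%), with a median of -0.15. Cad, for the entry steps of pyrimidine synthesis, read 584 and 489.7 in the Ets1-deleted arrays, against 768 and 784 in the controls (-0.54 ± 0.12, adjusted p = 0.0055 in limma). Dctd, which makes the dUMP that thymidylate synthase uses, fell by 0.53, and Ctps, for the step from UTP to CTP, fell by 0.44 (adjusted p = 0.0107 and 0.0228 in limma). Mthfd1, a folate cycle enzyme of the cytosol, fell by 0.42 and Shmt2, the mitochondrial enzyme that passes a carbon from serine to folate, rose by 0.46 (adjusted p = 0.0178 and 0.00746 in limma). Among 17 genes of the replication checkpoint and fork protection, 1 rose and 1 fell. Brca1, which protects stalled forks and repairs breaks, read 546 and 626 in the Ets1-deleted arrays, against 378 and 336 in the controls (0.71 ± 0.12, adjusted p = 0.000844 in limma). Brca2 fell by 0.35 (adjusted p = 0.0489 in limma).

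Mitosis genes, which are transcribed mostly after S phase, were read beside the members, also on the brightest probe set alone. Of 19 mitosis genes 0 rose and 3 fell in limma, which is 15.8% called, against 26.7% of all tested genes (12.8% lower). Their median was -0.18, beside the members' median of 0.02. Mki67, a general marker of cycling cells, read 2326 and 2259.5 in the Ets1-deleted arrays, against 3463 and 3805 in the controls (-0.66 ± 0.11, adjusted p = 0.000838 in limma). Kif11, a spindle motor, fell by 0.38, and Cenpe, a kinetochore motor, by 0.35 (adjusted p = 0.039 and 0.0423 in limma). The difference between the mitosis genes and the members was not tested.

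**Figure D5:**
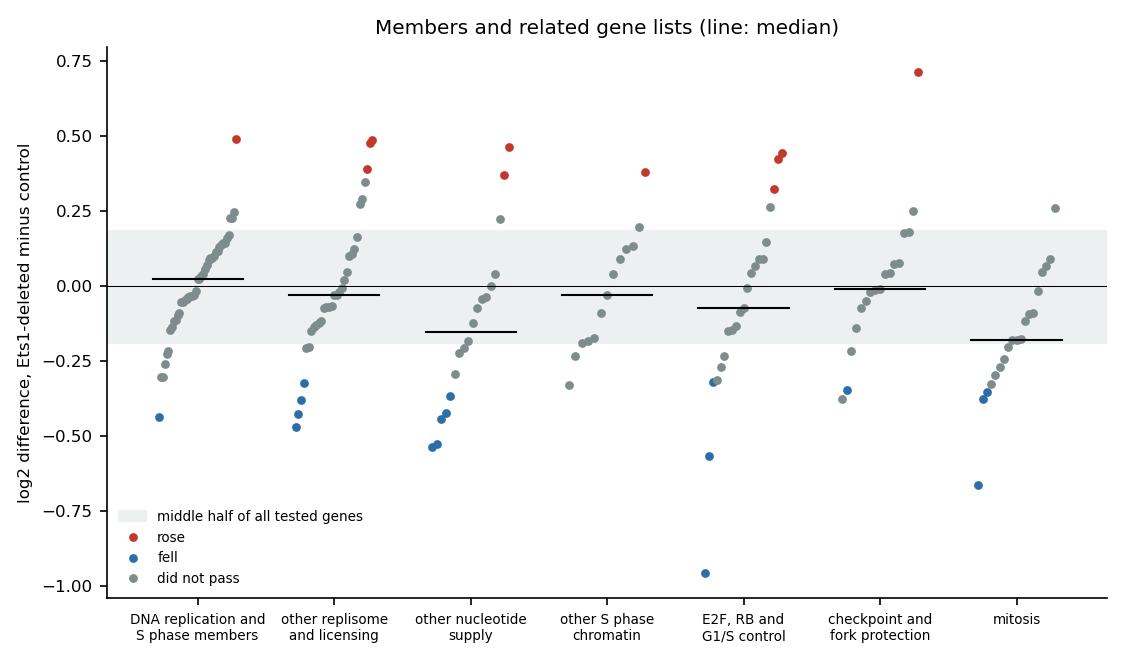
Log2 differences (Ets1-deleted minus control) of the members and of 6 related gene lists, 1 point per tested gene in order of value, with the median as a line. The shaded band runs from -0.19 to 0.18, the quartiles of all tested genes. Most members lie inside the band, and Rbl2 and Mki67 lie lowest in their lists.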

How the data were processed

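The authors made the intensity values with RMA, per the submitters' processing notes; the sources used here do not give software or version. RMA commonly gives log2, but the deposited intensities reach 23291, so a linear scale was inferred and log2 taken once. Probe sets were named through the platform annotation: of 45101, 34945 had 1 symbol, 932 several, 9211 were not listed, and 64 are array controls. Each gene took its probe set of highest mean log2 value, and genes below the median of all probe set means (50th percentile) were not tested. The fit was limma (version 3.58.1, R 4.3.3; lmFit, eBayes, 2 residual and 9.77 prior degrees of freedom) on all 4 arrays, two-sided, with Benjamini-Hochberg adjustment over 10872 genes, threshold 0.05. It was also run on simulated data in which all genes shared the same variance and arrays were independent, which differs from these data. Precision is limited by the number of arrays: an exact permutation test of 2 against 2 cannot go below 0.333.

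The members, gene lists and tests were chosen with earlier results of these data known. Values in every array are given for members past the threshold and the 8 others of largest difference, and for a few more as examples; from each list up to 5 genes of smallest p are named. Alternatives covered normalization, the filter on dim genes, the choice of probe set, variances, the threshold, a background floor, the replicate block and leaving out each array.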

Additional observations from a re-analysis of the deposited data

Results flagged for a closer look

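Signals appeared in probe sets that the comparison by gene does not use. The second Uhrf1 probe set differed by 0.51 on the log2 scale (671.1 and 704.9 intensity units in the Ets1-deleted arrays, against 514.3 and 454.2 in the controls), while the brightest differed by 0.07. The second Orc1 probe set differed by -0.35, with 93.5 and 100.7 intensity units in the Ets1-deleted arrays and 121.5 and 125.6 in the controls, values close to the arrays' medians of 96.5 to 97.7.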

How the results depend on the processing

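The median over the members stayed between -0.02 and 0.04 under the normalizations, filters, probe set choices, background floor, replicate block and left-out arrays that were run. Members called higher (1 as reported) numbered 0 with the stricter filter, with each gene's own variance and with a limit of 1.5-fold, and 0 to 4 with 1 array left out; with averaged probe sets the 1 was Uhrf1 in place of Tyms. Members called lower (1 as reported) numbered 2 with repeated quantile normalization, the replicate block or averaged probe sets, 3 at an adjusted p of 0.1, 0 with own variances and at 1.5-fold, and 0 to 1 with 1 array left out. With own variances, 5 members had an unadjusted p under 0.05 and 13 of 10872 genes passed in all. Pathway genes called higher (10) and lower (13) numbered 0 and 0 with own variances, 1 and 1 at 1.5-fold, 6 and 6 with the array floor subtracted, and 5 to 8 and 5 to 11 with 1 array left out; the lowest counts were those without control replicate 2. The stricter filter leaves Tyms untested. Samples of the 2 groups share replicate numbers, but nothing says that a number marks a shared animal or day. Deviations of same-numbered arrays correlated at 0.17 over all tested genes and at 0.55 over the members. With the replicate block 3 members passed, E2f1 (-0.30, adjusted p = 0.0483 in limma), Pole and Tyms, beside 29.9% of all tested genes. Of all genes tested, 27.3% passed with repeated quantile normalization, 28.3% with the stricter filter and 30% with averaged probe sets. The share was 33.7% at an adjusted p of 0.1, 22.9% with the array floor subtracted and 12.4% with a limit of 1.5-fold. None of the 10 members followed in detail changed direction in these settings. The causes were not tested. Low signal limits Tyms, the second Orc1 probe set and Cdkn1c.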

Other observations

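Replicate arrays differed more over the members than over all tested genes, which were not matched to the members for level. The median gap between the 2 arrays of a group was 0.17 on the log2 scale over the members in the Ets1-deleted group and 0.14 in the controls, beside 0.12 and 0.11 over all tested genes. The median level of the 43 members was 592.4 and 519.6 intensity units in the Ets1-deleted arrays, against 500.7 and 533.4 in the controls. The CCAAT box, the motif of the factor NF-Y, was found on either strand in 59.5% of the 37 member genes with a promoter window, against 41.1% of all genes with one.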
